A study of Rattus norvegicus with 30 samples.

Results

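The enzymes described here carry out phase II metabolism, in which a polar group is joined to a drug, a dietary compound or an endogenous metabolite so that it can be excreted. Members were every protein-coding row whose symbol begins with the stem of a glutathione S-transferase class (Gsta, Gstk, Gstm, Gsto, Gstp, Gstt or Gstz), of a microsomal glutathione transferase (Mgst), of a UDP-glucuronosyltransferase (Ugt) or of a sulfotransferase (Sult), followed by a number. Of 32545 genes in the table, of which 22293 were protein coding, 42 matched and 31 were kept because they had 10 or more reads in at least 5 of the 30 libraries. The 31 were 17 glutathione S-transferases, 2 microsomal glutathione transferases, 4 Ugt genes and 8 sulfotransferases. The 11 that were not kept were *Gstm3*, *Gstm6*, both rows named *Gstm6l*, a second row named *Gsto2*, *Gstt4*, *Mgst2*, *Sult1d1*, *Sult2a1*, *Ugt2b15* and *Ugt2b17*, none of which exceeded 17 reads in any library. The nearest to the limit inside it was *Sult6b1*, with 10 or more reads in 5 libraries, and the nearest outside it was *Gstm3*, which had that many in 4 libraries.

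Poly(A) mRNA was sequenced from the cortex (Cx) and the outer medulla (OM) of the right kidney of male Sprague-Dawley rats, a common outbred laboratory strain. Animals of the LS groups ate a diet with 0.4% NaCl, and those of the HS14 and HS21 groups were switched from it to 4.0% NaCl for 14 and 21 days. Each of the 6 combinations of tissue and diet had 5 libraries, and neither a transgene nor a drug was involved. The age of these rats was not given in the labels.

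Glutathione S-transferases join the tripeptide glutathione to electrophiles, and the microsomal enzymes of the Mgst type do so at membranes and also reduce lipid hydroperoxides. Ugt enzymes transfer glucuronic acid from UDP-glucuronic acid, and sulfotransferases transfer sulfate from PAPS, the activated form of sulfate. In the kidney the proximal tubule, which secretes organic anions, is known as the main site of these reactions, while the pi class enzyme Gstp1 is known from more distal segments.

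Library totals were 12748841 to 21842843 reads assigned to genes in 29 libraries, and 5408126 in OM HS14 replicate 10. Markers of 10 proximal tubule genes averaged 10.48 to 10.58 on the log2 CPM (read count scaled to library size) scale in Cx LS. In the OM they varied far more among libraries of one group, from 2.95 in OM LS replicate 5 to 8.69 in OM LS replicate 2. These libraries of OM tissue thus held very unequal amounts of proximal transcripts, and not of these alone. Podocyte markers ranged from 1.297 to 5.814 in OM LS, against 6.922 to 7.086 in Cx LS. Markers of the distal convoluted tubule ranged from 2.353 to 6.275 in OM LS, against 8.041 to 8.452 in Cx LS. Markers of the thick ascending limb averaged 6.42 to 6.67 in Cx LS and 8.37 to 10.06 in OM LS. None of the 4 liver genes checked was tested in any comparison, and *Alb* had 0 reads in 18 of the 30 libraries. In bulk tissue, fewer cells of a type and less RNA per cell cannot be told apart.

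On LS, the most abundant conjugation transcripts of the Cx were *Mgst3*, at 413.3 ± 69.3 FPKM (fragments per kilobase of exon, scaled to library size, here from TMM-scaled counts, mean ± SD, n = 5), and *Sult1c2a*, at 391.7 ± 39.5 FPKM. They were followed by the alpha class enzymes *Gsta5*, at 276.9 ± 42.0 FPKM, and *Gsta1*, at 271.9 ± 49.3 FPKM, and by *Ugt2b35*, at 190.3 ± 39.0 FPKM. *Mgst3* and *Sult1c2a* did not differ beyond their spread, nor did *Gsta5* and *Gsta1*. These 5 transcripts made up 59.3% of the FPKM summed over the 31 members. In OM LS the first place was held by *Gstp1*, at 411.6 ± 78.9 FPKM, followed by *Sult1c2a* at 322.7 FPKM (range 80.63 to 616.5), *Gsta5* at 177.9 ± 125.0 FPKM, *Mgst3* at 143.6 ± 65.0 FPKM and *Gstt3*. Neighbours in that order overlapped within their SD, because the alpha class and *Sult1c2a* levels of OM LS varied widely between libraries. In OM LS the highest mean FPKM of a Ugt row was that of *Ugt2b35*, at 22.35 (range 0.4276 to 76.54). It was not apart from that of *Ugt1a8*, at 20.8 ± 9.33 FPKM. By CPM their order was reversed, at a mean of 42.55 for *Ugt2b35* and 194.4 for *Ugt1a8*. The deposited gene length was 1904 bases for *Ugt2b35* and 9345 bases for *Ugt1a8*, so their order depends on the scaling by length.

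**Figure D1:**
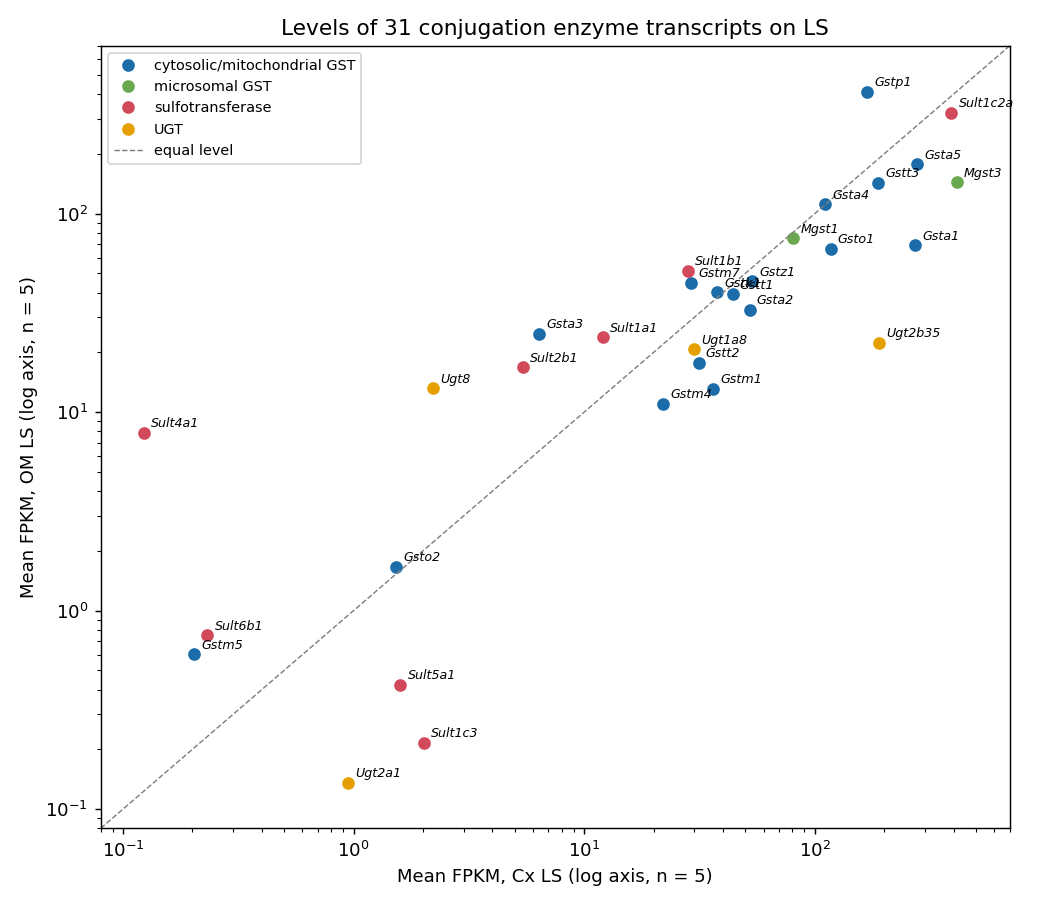
Mean FPKM of each of the 31 members in Cx LS (horizontal log axis) against OM LS (vertical log axis), n = 5 libraries each, coloured by enzyme class. *Gstp1* (168.1 in Cx and 411.6 in OM), *Ugt8* and *Sult4a1* lie above the line of equal level, and *Ugt2b35* (190.3 and 22.35) and *Gsta1* (271.9 and 69.29) below it.

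Summed per class, the glutathione S-transferases came to 1447 ± 125.2 FPKM in Cx LS, the microsomal enzymes to 493.9 ± 67.0 FPKM, the sulfotransferases to 441.3 ± 47.9 FPKM and the Ugt genes to 223.4 ± 43.4 FPKM. After 21 days of 4.0% NaCl the same sums in the Cx were 1201 ± 82.1 FPKM, 299.5 ± 38.6 FPKM, 288.8 ± 29.9 FPKM and 94.1 ± 26.6 FPKM. For the microsomal enzymes, the sulfotransferases and the Ugt genes, the highest Cx HS21 library lay below the lowest Cx LS library. The sulfotransferase sum was mostly *Sult1c2a*, at 391.7 FPKM in Cx LS and 221 in Cx HS21. The Ugt sum was mostly *Ugt2b35*, at 190.3 and 72.02 FPKM. Of the 6 sulfotransferases tested in Cx HS21, 4 had a positive and 2 a negative log2 ratio to LS, with a median of 0.18. For the glutathione S-transferases the ranges met, at 1099 to 1292 FPKM in Cx HS21 and 1263 to 1542 FPKM in Cx LS. All members together came to 2606 ± 108 FPKM in Cx LS, 2190 ± 183 FPKM in Cx HS14 and 1883 ± 108 FPKM in Cx HS21. In the OM the sums were 1951 ± 809, 1544 ± 593 and 1840 ± 444 FPKM in LS, HS14 and HS21, so their SDs were larger than the differences between their means.

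The first question was which members differed between Cx HS14 and Cx LS. Of the 28 members tested, *Sult1a1* was higher, and *Ugt2b35*, *Gstp1* and *Mgst1* were lower, at an adjusted *P* under 0.05 (edgeR quasi-likelihood test, Benjamini-Hochberg over 14181 genes). Across all genes tested, 1.14% were called higher and 1.18% lower, 2.33% in all. The groups did not overlap for 3 members (10.7%), against 5.27% of all genes. The median log2 ratio was −0.15 over the members and −0.002 over all genes, and 22 of the 28 members had a negative ratio. *Gstm5*, *Sult4a1* and *Sult6b1* had too few Cx reads to be tested at either time.

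*Sult1a1* (ENSRNOG00000019342, Rnor_6.0 chr1:198100586-198104109), a phenol sulfotransferase that acts on small phenols and drugs such as paracetamol, stood at 14.19, 16.22, 15.91, 13.49 and 13.79 CPM in the 5 Cx LS libraries. In Cx HS14 it was 27.1, 20.17, 30.1, 28.44 and 24.03 CPM, and in Cx HS21 it was 35.1, 24.44, 26.86, 37.06 and 51.26 CPM. Every library of either high-salt group lay above every Cx LS library. The log2 ratio to LS was 0.80 ± 0.11 (SE) at HS14 (adjusted *P* = 0.00672) and 1.23 ± 0.18 at HS21 (adjusted *P* = 0.000335), and both calls held when any of the libraries was left out.

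*Ugt2b35* (ENSRNOG00000001980, chr14:22553650-22591461) belongs to the subfamily of Ugt enzymes that conjugates steroids and many drugs. It was measured at 322.3, 309.7, 324.9, 364.4 and 490.0 CPM in Cx LS. The HS14 libraries held 220.3, 124.1, 214.1, 87.41 and 204.1 CPM, and the HS21 libraries 175.6, 182.8, 160.0, 85.75 and 81.56 CPM. No high-salt library reached the lowest LS library. The log2 ratio was −1.11 ± 0.24 at HS14 (adjusted *P* = 0.0396) and −1.42 ± 0.24 at HS21 (adjusted *P* = 0.000803).

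*Gstp1* (ENSRNOG00000018237, chr1:219291679-219294147) fell by 0.79 ± 0.17 on the log2 scale at HS14 (adjusted *P* = 0.0407) and by 0.57 ± 0.17 at HS21 (adjusted *P* = 0.0166). Its Cx LS values were 122.2, 81.31, 117.2, 144.6 and 180.9 CPM. The HS14 values of 70.96, 75.78, 67.98, 70.05 and 91.67 CPM and the HS21 values of 83.85, 91.88, 97.39, 89.04 and 75.91 CPM reached into the LS range only at its lowest library, replicate 2. *Mgst1* (ENSRNOG00000007743, chr4:172119331-172134607), a membrane enzyme with glutathione peroxidase activity, moved from 71.96, 71.61, 73.63, 85.08 and 80.76 CPM in Cx LS to 53.71, 65.11, 59.77, 55.28 and 60.17 CPM in Cx HS14. In Cx HS21 it was 54.75, 56.49, 59.27, 54.21 and 67.4 CPM. All 10 high-salt libraries lay below all LS libraries, with log2 ratios of −0.40 ± 0.07 at HS14 (adjusted *P* = 0.016) and −0.41 ± 0.07 at HS21 (adjusted *P* = 0.00127).

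The 3 lower calls at HS14 depended on which libraries were included. Of the 10 fits that left out a library, 8 lost the call of *Gstp1*, 7 that of *Ugt2b35* and 1 that of *Mgst1*. The *Gstp1* call was also lost with limma on log2(FPKM + 1) and on log2(FPKM + 0.1). None of the members was called lower without Cx LS replicate 4, and *Mgst1* alone was called lower without Cx LS replicate 1, 3 or 5 or without Cx HS14 replicate 8. Calls over all genes fell in these fits as well, to 42 higher and 43 lower without Cx LS replicate 4. They were 90 and 71, 88 and 71, and 67 and 87 without Cx LS replicates 1, 3 and 5. Without Cx HS14 replicate 8 they were 61 and 58. DESeq2 called 9 members lower at HS14 (*Gstp1*, *Ugt2b35*, *Mgst1*, *Gsta1*, *Ugt1a8*, *Gstm1*, *Gstt2*, *Gstm4* and *Gsta3*), and *Sult1a1* higher. It called 500 higher and 414 lower of 16373 genes in all, where edgeR had 162 and 168.

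By 21 days of 4.0% NaCl, 14 of the 28 members tested in the Cx differed from LS, 3 higher and 11 lower. Across all 14299 genes tested, 39.4% were called, 18.9% higher and 20.5% lower, against 10.7% and 39.3% of the members. The member median log2 ratio was −0.24 and that of all genes was 0.005. The groups did not overlap for 8 members, 28.6% of those tested, against 26.7% of all genes. With libraries scaled to total counts, the median of all genes shifted to 0.134 and the split of all calls from 2702 higher and 2936 lower to 4401 higher and 1653 lower, while 3 members were still called higher and 8 lower.

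The members that were higher were *Sult1a1*, *Ugt8* and *Gstm7*. *Ugt8* (ENSRNOG00000009345, chr2:229644382-229718659) encodes a galactosyltransferase that makes galactosylceramide, so despite its symbol it serves lipid synthesis and not drug conjugation. Its Cx LS libraries held 8.699, 7.604, 7.157, 8.748 and 7.313 CPM and its HS21 libraries 17.23, 14.22, 13.6, 11.57 and 7.625 CPM, the last of these within the LS range. The log2 ratio was 0.69 ± 0.19 (adjusted *P* = 0.0118). *Gstm7* (ENSRNOG00000018937, chr2:210720704-210782856), of the mu class, was at 54.03, 47.41, 59.85, 72.1 and 56.26 CPM in Cx LS and at 81.04, 96.62, 85.86, 84.37 and 103.6 CPM in Cx HS21. The groups did not overlap, and the log2 ratio was 0.63 ± 0.11 (adjusted *P* = 0.000814). At HS14 *Gstm7* was at 61.92, 68.83, 78.05, 50.19 and 97.91 CPM, with a log2 ratio of 0.29 ± 0.17 that did not pass the test (adjusted *P* = 0.413).

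Among those that were lower, *Sult1c2a* (ENSRNOG00000042111, chr9:4152589-4168221), the sulfotransferase with the most reads, had 1106, 1150, 1031, 1077 and 875.3 CPM in Cx LS. At HS14 it had 959.1, 1064, 1060, 987.0 and 799.0 CPM, a log2 ratio of −0.12 ± 0.09 that did not pass the test. At HS21 it had 587.5, 581.8, 699.8, 632.0 and 454.7 CPM, below every library of LS and of HS14. The log2 ratio of HS21 to LS was −0.84 ± 0.11 (adjusted *P* = 0.000186) and that of HS21 to HS14 was −0.72 ± 0.11 (adjusted *P* = 0.0059).

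*Mgst3* (ENSRNOG00000004245, chr13:85601499-85622314), a microsomal enzyme that can also conjugate leukotriene A4, was at 276.0, 272.6, 209.2, 196.7 and 285.3 CPM in Cx LS and at 209.9, 300.4, 259.7, 211.2 and 147.2 CPM in Cx HS14. In Cx HS21 it was at 114.5, 168.3, 145.7, 164.1 and 121.4 CPM, below every LS library but overlapping HS14, whose replicate 10 was low. The log2 ratio to LS was −0.81 ± 0.14 at HS21 (adjusted *P* = 0.000794) and −0.16 ± 0.17 at HS14. Between HS21 and HS14 it was −0.65 ± 0.17 (adjusted *P* = 0.0269), a call that was lost without Cx HS14 replicate 7, 8 or 9 or Cx HS21 replicate 11 or 15.

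A further pair of Ugt rows was lower at HS21. *Ugt1a8* (ENSRNOG00000018740, chr9:95161157-95302822), the only row of the Ugt1a locus, whose enzymes conjugate bilirubin and phenols, went from 252.9, 215.4, 263.5, 330.2 and 336.5 CPM in Cx LS to 141.1, 145.6, 221.6, 169.5 and 167.3 CPM in Cx HS21. Only HS21 replicate 13 reached the lowest LS library, and the log2 ratio was −0.74 ± 0.15 (adjusted *P* = 0.00203). At HS14 its values of 217.5, 233.5, 178.8, 173.5 and 216.5 CPM gave −0.47 ± 0.13, which did not pass the test (adjusted *P* = 0.0743). *Ugt2a1* (ENSRNOG00000001973, chr14:22192970-22619968), known from the olfactory epithelium, had few reads, at 6.562, 4.112, 5.178, 6.853 and 3.079 CPM in Cx LS and 1.595, 2.938, 1.374, 2.3 and 1.293 CPM in Cx HS21. The groups did not overlap, and the log2 ratio was −1.45 ± 0.29 (adjusted *P* = 0.00219).

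A further 4 members were lower in Cx HS21. *Gsta5* (ENSRNOG00000000201, chr8:85553734-85565179), an alpha class enzyme, went from 254.0, 256.2, 358.2, 268.0 and 296.3 CPM in Cx LS to 169.6, 175.1, 265.9, 202.1 and 225.9 CPM, with groups that overlapped and a log2 ratio of −0.48 ± 0.13. *Gstm4* had −0.54 ± 0.12 with groups that did not overlap. *Gstt3*, of the theta class, and *Gsto1*, an omega class enzyme that reduces dehydroascorbate, had −0.21 ± 0.07 and −0.18 ± 0.06. The calls of *Gsta5*, *Gstt3* and *Gsto1* were lost with libraries scaled to total counts, and those of *Gstt3* and *Gsto1* also without any one of several libraries.

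**Figure D2:**
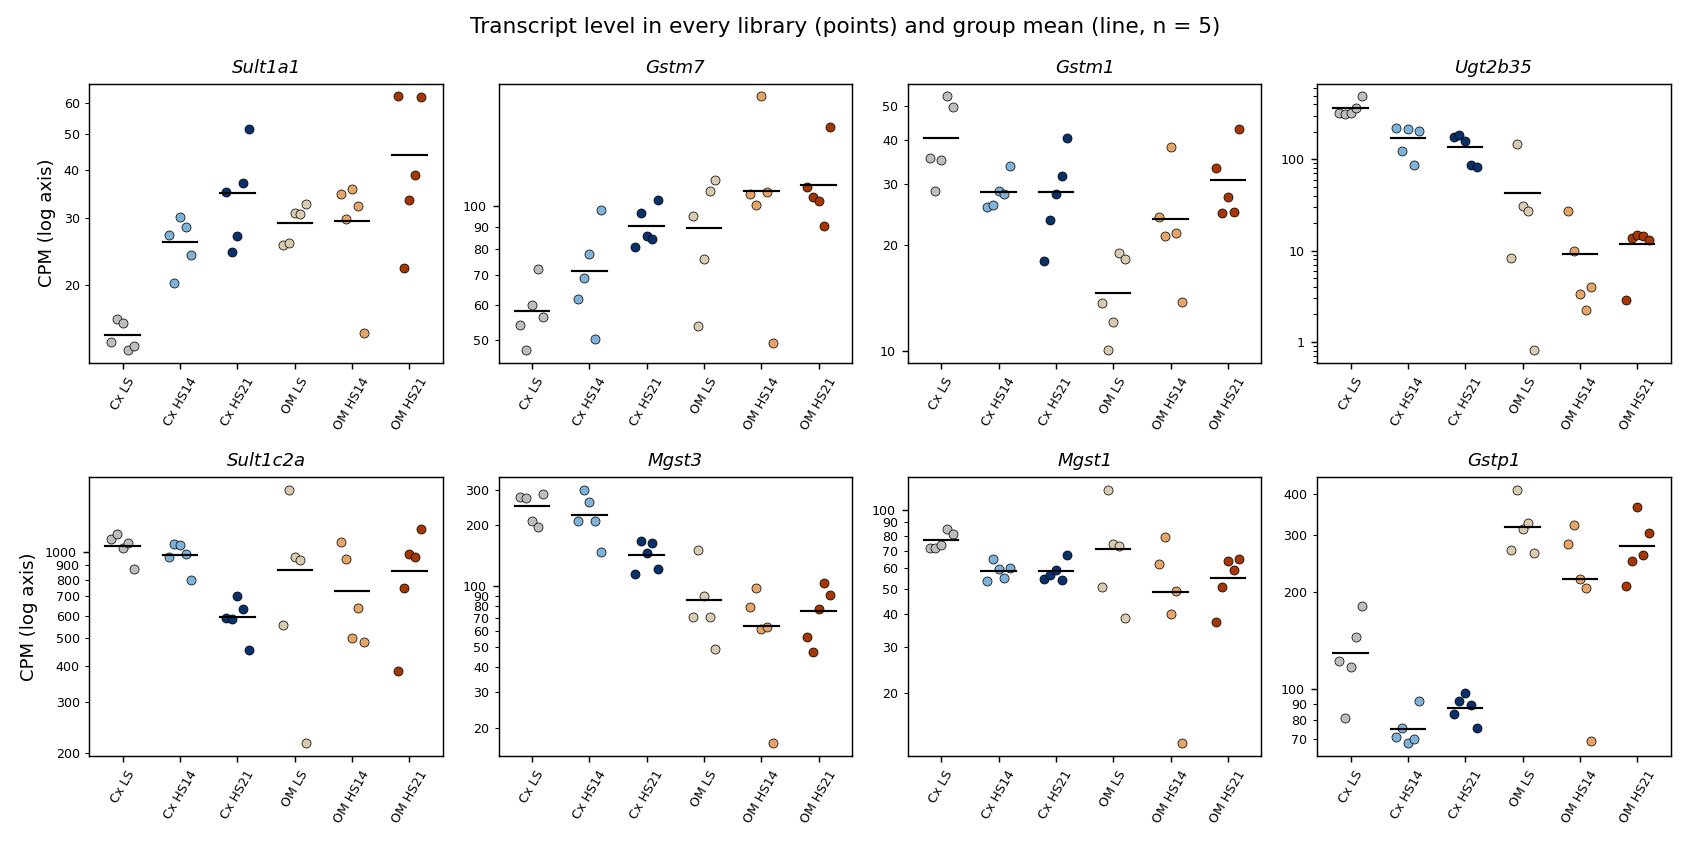
CPM (log axis) of 8 members in each of the 30 libraries, by tissue and diet, with a line at each group mean (n = 5). In the Cx, *Sult1a1* rises from 13.49–16.22 CPM on LS to 24.44–51.26 CPM at HS21 and *Ugt2b35* falls from 309.7–490.0 to 81.56–182.8 CPM, while in the OM *Gstm1* is 10.07–18.98 CPM on LS and 24.71–42.98 CPM at HS21.

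Of the 28 tested members, 14 were not called in Cx HS21. Among them, *Gstz1*, which also serves as maleylacetoacetate isomerase in tyrosine breakdown, had a log2 ratio of −0.11 with an interval (± 2 SE) from −0.24 to 0.006, and *Gstk1*, the mitochondrial and peroxisomal kappa enzyme, had −0.09 with an interval from −0.20 to 0.02. *Gsta4*, which conjugates the lipid peroxidation product 4-hydroxynonenal, had −0.12 (−0.33 to 0.10), and *Gsta2* had −0.07 (−0.33 to 0.19). The interval of *Gstt2* was wide, from −1.21 to −0.14 around −0.68 (adjusted *P* = 0.0637). *Gstm1* had −0.52 ± 0.22 (adjusted *P* = 0.075) and *Gsta1* −0.30 ± 0.14 (adjusted *P* = 0.112).

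Markers of other cells moved with the diet in the same Cx libraries. Proximal tubule markers were lower at HS21 in 10 of 10 cases (median log2 ratio −0.71), and their mean level was 9.64 to 9.92 on the log2 CPM scale, against 10.48 to 10.58 in Cx LS. All 8 leukocyte markers were higher, with a median of 1.83 and a mean level of 4.42 to 6.09 against 3.13 to 3.62. A separate list of 6 markers of the proximal straight tubule (S3) did not fall throughout, with 1 higher, 2 lower and a median of 0.34. Of the 18 genes of the first 2 lists, *Slc5a12* was at 0 in 1 of the 30 libraries and the others in none. Markers of more distal segments were higher as well, 4 of 6 for the thick ascending limb, 3 of 3 for the distal convoluted tubule and 5 of 6 for the collecting duct. At HS14, 2 of the 10 proximal markers were lower and 5 of the 8 leukocyte markers were higher. Cx HS14 replicate 10 stood apart there, with a proximal level of 9.88 against 10.46 to 10.53 in the other 4 libraries, and a thick ascending limb level of 7.21 against 6.52 to 6.73. Without it, 4 members were called lower at HS14 (*Gstp1*, *Ugt2b35*, *Mgst1* and *Gsta3*) and *Sult1a1* higher. The calls over all genes rose too, from 162 higher and 168 lower to 274 and 197 of 14256. The part of these markers in the differences of the members was not tested. The share of reads in introns, as listed by the study, was higher in every Cx HS21 library than in any Cx LS library and cannot be told apart from the diet there. With it as a covariate, 2 members were called higher (*Sult1a1* and *Gstm7*) and 3 lower (*Sult1c2a*, *Mgst3* and *Ugt2b35*), while the calls over all genes fell to 699 higher and 893 lower of 14299.

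Between HS21 and HS14 in the Cx, *Sult1c2a* and *Mgst3* were the only members of 28 called, both lower, against 16.2% of all genes tested. A further 4 had a positive ratio with an unadjusted *P* under 0.05 (*Gstp1*, *Ugt8*, *Sult1a1* and *Gsto2*) and *Ugt2a1* a negative one, and none of them passed the adjustment. Of all genes, 6.5% were higher and 9.69% lower. The groups did not overlap for *Sult1c2a* alone, against 9.96% of all genes. This comparison and those with LS share libraries, so their ratios are not separate evidence.

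In the OM none of 28 tested members was called at HS14 or at HS21 (edgeR, adjusted *P* under 0.05), where 0.00694% and 0.769% of all genes were (0.639% higher and 0.131% lower at HS21). At an unadjusted *P* under 0.05 there were 1 higher and 1 lower member at each time. DESeq2 called no member at HS14, with 90 higher and 20 lower of 15774 genes in all. At HS21 it called *Gstm1* higher, with 555 higher and 166 lower of 17999 genes in all. *Gstm5*, *Sult1c3* and *Ugt2a1* had too few OM reads to be tested. At OM HS21, 4 of the 8 leukocyte markers were higher (median log2 ratio 1.49) and none of the 10 proximal tubule markers was called, and their part was not tested. The precision was lower than in the Cx, since the common dispersion of the fit was 0.136 in OM HS14 and 0.0950 in OM HS21 against 0.0263 and 0.0299 in the Cx. For *Mgst1*, the interval of the OM ratio at HS21 ran from −0.95 to 0.16, which contains the Cx ratio of −0.41. For *Sult1a1* it ran from 0.05 to 1.09 around 0.57 ± 0.26 (adjusted *P* = 0.454), with OM HS21 values of 62.65, 22.18, 33.51, 38.82 and 62.54 CPM against 25.52, 25.77, 30.94, 30.71 and 32.64 CPM in OM LS.

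*Gstm1* (ENSRNOG00000029726, chr2:210803869-210809306), a mu class enzyme, was at 13.74, 10.07, 12.11, 18.98 and 18.25 CPM in OM LS. The OM HS14 libraries held 24.06, 21.24, 38.06, 21.63 and 13.77 CPM and the OM HS21 libraries 33.34, 24.71, 27.4, 24.91 and 42.98 CPM. The HS21 libraries lay wholly above those of LS (exact permutation test, two-sided, *P* = 0.00794, the smallest that 5 against 5 allows), as did 3.59% of all genes in either direction. The log2 ratio of 1.04 ± 0.22 had an adjusted *P* of 0.0653. In the Cx the same transcript went from 35.56, 28.63, 34.95, 53.22 and 49.72 CPM on LS to 18.06, 23.7, 28.09, 31.54 and 40.57 CPM at HS21, with groups that overlapped.

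Whether a member answered the diet differently in the 2 tissues was asked with an interaction term over 20 libraries. At HS21 *Gstm1* was the only 1 of 30 members called, where 0.665% of all genes were (0.448% with a higher ratio in the OM). Its log2 ratio of HS21 to LS was 1.56 ± 0.33 higher in the OM than in the Cx (adjusted *P* = 0.0306). The call was lost with total-count scaling, with the intron share as a covariate, and without any one of Cx LS replicates 4 and 5, Cx HS21 replicates 11 and 12, OM LS replicates 1 and 3 and OM HS21 replicate 15. At HS14 none of 31 members and none of all genes was called, and the *Gstm1* difference was 1.18 ± 0.31 (adjusted *P* = 0.898). DESeq2 also called no member at HS14, where 1 higher and 3 lower members had an unadjusted *P* under 0.05. For *Sult1a1* the difference was −0.82 ± 0.23 at HS14 (adjusted *P* = 0.898) and −0.67 ± 0.33 at HS21 (adjusted *P* = 0.338), so a different response of the tissues was not shown. The same held for *Ugt2b35*, with −0.47 and an interval from −2.49 to 1.55 at HS21.

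Several members varied widely among OM libraries of one diet. In OM LS *Gsta1* (ENSRNOG00000013484, chr9:27368272-27452902) was at 45.15, 245.9, 102.0, 95.1 and 15.27 CPM, *Sult1c2a* at 554.7, 1649, 957.2, 939.8 and 215.7 CPM and *Ugt2b35* at 8.282, 145.7, 30.63, 27.31 and 0.8142 CPM. Each of the 3 was highest in replicate 2 and lowest in replicate 5, the libraries with the highest and the lowest proximal tubule marker level of the group, 8.69 and 2.95 on the log2 CPM scale. *Ugt8* and *Gsta3* showed the opposite order, with *Ugt8* at 54.97, 15.11, 47.37, 43.01 and 75.52 CPM and *Gsta3* (ENSRNOG00000056847, chr9:27402381-27417023) at 34.72, 18.3, 33.99, 30.08 and 41.73 CPM. *Gstm1* was likewise lowest in replicate 2 but did not have its highest value in replicate 5. Without OM LS replicates 2 and 5, no member was called in the OM at HS14 or HS21.

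With the proximal marker level as a covariate, an alternative chosen after the data were seen, 4 members were called at OM HS21 and none at OM HS14. *Gstm1* was higher (1.13, adjusted *P* = 0.0138), and *Ugt2b35* (−1.44, adjusted *P* = 0.0157), *Mgst1* (−0.49, adjusted *P* = 0.00999) and *Ugt1a8* (−0.49, adjusted *P* = 0.0358) were lower, each by edgeR over 14555 genes. The same covariate raised the calls over all genes from 93 higher and 19 lower to 676 higher and 238 lower.

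**Figure D3:**
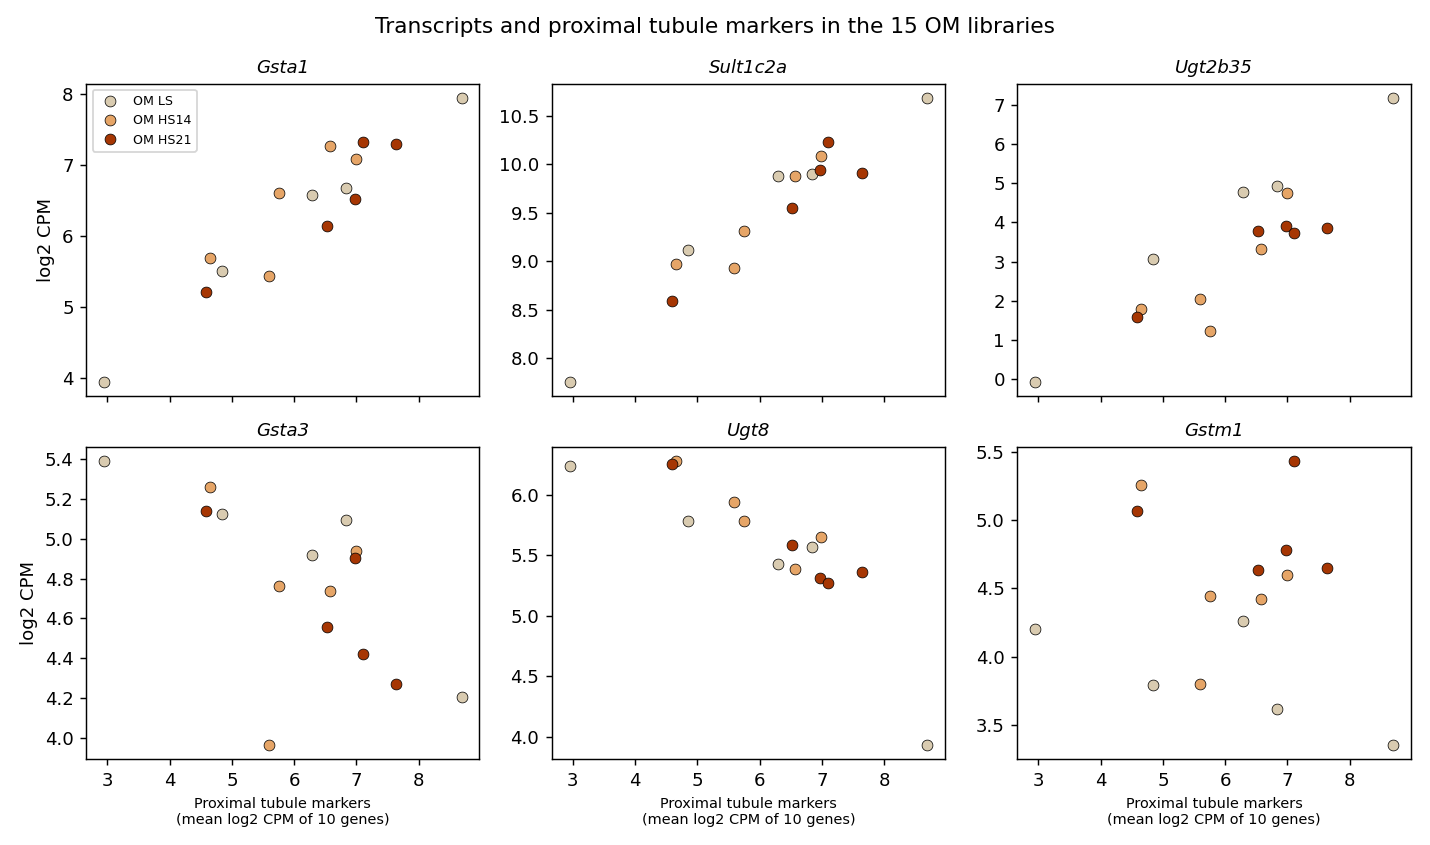
Log2 CPM of 6 members (vertical axes) against the mean log2 CPM of 10 proximal tubule markers (horizontal axis) in the 15 OM libraries, coloured by diet. *Gsta1*, *Sult1c2a* and *Ugt2b35* are highest at the right, in OM LS replicate 2 (marker level 8.69), and lowest at the left, in replicate 5 (2.95), *Gsta3* and *Ugt8* are lower at the right, and the OM HS21 points of *Gstm1* all lie above the OM LS points.

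Between the tissues on LS, 16 of 29 tested members differed, 7 higher and 9 lower in the OM, against 40.9% of all 14295 genes, 21.3% higher and 19.5% lower. The groups did not overlap for 15 members (51.7%), against 29% of all genes. On total-count scaling the median of all genes moved to 0.268 and the calls over all genes from 3051 higher and 2794 lower to 5546 higher and 1842 lower, while 7 members were higher and 9 lower as before.

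Higher in the OM was *Sult4a1* (ENSRNOG00000046975, chr7:124958546-124982566), a sulfotransferase best known from brain. It was almost absent from Cx LS, at 0.5342, 0, 0.3046, 0.1458 and 0.3849 CPM, where no library had more than 7 reads. OM LS held 13.99, 23.42, 26.44, 21.38 and 2.103 CPM, and the log2 ratio was 5.94 ± 0.77 (adjusted *P* = 2e-04). *Ugt8* had a log2 ratio of 2.56 ± 0.34, *Gsta3* of 1.95 ± 0.22 and *Gstp1* of 1.29 ± 0.21. The Cx LS libraries held *Gsta3* at 8.241, 5.509, 8.528, 7.8 and 10.78 CPM. They were all below the OM LS libraries of *Gsta3*. *Gstp1* had OM LS values of 267.9, 413.3, 312.9, 325.7 and 262.6 CPM, all above the Cx LS libraries. *Sult2b1* (ENSRNOG00000021046, chr1:101710959-101773508), which sulfates cholesterol, was at 17.32, 18.16, 15.15, 13.92 and 10.07 CPM in Cx LS and 52.64, 44.91, 46.67, 41.56 and 44.44 CPM in OM LS, a log2 ratio of 1.62 ± 0.15. *Sult1a1* had a log2 ratio of 0.98 ± 0.10 and *Gstm7*, at 95.33, 53.81, 76.03, 108.2 and 114.5 CPM in OM LS, one of 0.62 ± 0.19 with groups that overlapped. The *Gstm7* call was lost without any one of Cx LS replicates 1, 2, 3 and 5 and OM LS replicates 1 and 4.

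Lower in the OM were *Sult1c3* (ENSRNOG00000011269, chr9:4930818-4978892), with 2.823, 2.25, 4.949, 2.624 and 2.438 CPM in Cx LS and 0.1227, 0.9234, 0.3171, 0.1892 and 0.06785 CPM in OM LS, and *Ugt2b35*, with a log2 ratio of −3.08 ± 0.95 (adjusted *P* = 0.0251). The *Ugt2b35* call was lost without OM LS replicate 1, 3 or 4 and with the intron share as a covariate, and DESeq2 gave it no adjusted *P*. Without OM LS replicate 2 the log2 ratio was −4.45 for *Ugt2b35*, −2.63 for *Gsta1*, −3.75 for *Ugt2a1* and −4.06 for *Sult1c3*. For *Sult1c3* the log2 ratio was −3.27 ± 0.53 (adjusted *P* = 0.000804). *Ugt2a1* had −2.85 ± 0.85, with OM LS values of 0, 2.183, 1.332, 0.1892 and 0 CPM, and its call was lost without OM LS replicate 4. *Sult5a1* (ENSRNOG00000015695, chr19:55952853-55967836) had −1.93 ± 0.40, from 2.594, 2.095, 2.437, 0.9477 and 1.411 CPM to 0.2454, 0.8394, 0.2536, 0.5676 and 0.6107 CPM. *Gsta1*, at 381.1, 324.2, 395.3, 514.0 and 360.6 CPM in Cx LS, had −1.96 ± 0.58, and all its OM LS libraries were lower. *Mgst3*, at 70.55, 151.0, 89.53, 70.7 and 48.92 CPM in OM LS, had −1.53 ± 0.28, also without overlap. The log2 ratio was −1.47 ± 0.22 for *Gstm1*, −1.003 ± 0.12 for *Gstm4* and −0.82 ± 0.21 for *Gsto1*.

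*Mgst1*, *Gsta4*, *Gstk1* and *Gstz1* did not pass the test between tissues, with log2 ratios between −0.23 and 0.09. In the same comparison 9 of the 10 proximal tubule markers were lower in the OM, with a median log2 ratio of −3.02, and all 6 thick ascending limb markers were higher, with a median of 2.73. The 6 markers of the proximal straight tubule (S3) were not lower as a list, with 2 higher, 1 lower and a median of 0.78. The part of these markers in the member differences was not tested. Without OM LS replicates 2 and 5, 15 members were called lower and 7 higher in the OM, and the calls over all genes rose too, to 3857 higher and 3909 lower of 14705. The share of reads in introns, as listed by the study, was higher in every OM LS library than in any Cx LS library. It cannot be told apart from the tissue there. With the intron share as a covariate, 4 were called higher (*Gstp1*, *Sult1a1*, *Sult2b1* and *Sult4a1*) and 0 lower. The calls over all genes fell to 482 higher and 423 lower of 14295.

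Of the 31 kept members, 5 overlap another protein-coding row on the same strand and 6 one on the opposite strand, and the library kit did not mark strand. *Ugt2a1* spans *Ugt2b35* and *Ugt2b15*, *Gstm7* spans *Gstm3*, *Gstm6* and *Gstm6l*, and *Gsto1* and *Gsto2* overlap each other. On the opposite strand, *Gsta1* spans *Gsta3*, and *Sult1c2a* overlaps the row RGD1562392. Reads of such pairs, and of near-identical relatives such as the alpha class and the mu class, may have been assigned to the wrong row or dropped, so values of single paralogs are uncertain.

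Promoters are shown for *Sult1a1* and *Ugt2b35*, with the largest higher and lower Cx HS21 ratios among members with a sequence at hand, and for *Gstm7* and *Gstp1*, which moved in opposite directions in the Cx and hold the same element. Each runs from 250 bases before to 50 bases after the annotated start, 5′ to 3′ on the gene's strand, from RefSeq on the GRCr8 build, which is not the Rnor_6.0 build of the gene positions above. Capitals mark matches, on either strand, to any of 5 motifs, the antioxidant response element, the xenobiotic response element, the HNF1 half-site, the nuclear receptor half-site and the TATA box. The regions are chr1:190706063-190706362 (minus strand) for *Sult1a1*, chr14:21208191-21208490 (plus strand) for *Ugt2b35*, chr2:198260270-198260569 (minus strand) for *Gstm7* and chr1:210769656-210769955 (minus strand) for *Gstp1*.
Sult1a1 promoter: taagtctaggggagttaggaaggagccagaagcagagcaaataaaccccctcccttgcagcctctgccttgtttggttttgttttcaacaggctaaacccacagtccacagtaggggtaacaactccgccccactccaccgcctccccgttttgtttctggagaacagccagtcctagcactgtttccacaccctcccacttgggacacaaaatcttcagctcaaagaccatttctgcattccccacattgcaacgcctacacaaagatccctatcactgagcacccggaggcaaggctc
Ugt2b35 promoter: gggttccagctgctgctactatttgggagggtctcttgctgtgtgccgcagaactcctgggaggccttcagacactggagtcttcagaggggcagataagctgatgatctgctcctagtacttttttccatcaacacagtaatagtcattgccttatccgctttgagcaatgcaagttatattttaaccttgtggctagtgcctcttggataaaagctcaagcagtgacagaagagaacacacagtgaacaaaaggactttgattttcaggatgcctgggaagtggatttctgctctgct
Gstm7 promoter: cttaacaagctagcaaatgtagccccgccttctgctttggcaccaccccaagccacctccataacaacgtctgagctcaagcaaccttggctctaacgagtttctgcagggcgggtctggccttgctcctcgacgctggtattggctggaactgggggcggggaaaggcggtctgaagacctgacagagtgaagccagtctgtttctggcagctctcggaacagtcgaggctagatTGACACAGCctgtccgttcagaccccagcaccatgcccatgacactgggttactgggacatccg
Gstp1 promoter: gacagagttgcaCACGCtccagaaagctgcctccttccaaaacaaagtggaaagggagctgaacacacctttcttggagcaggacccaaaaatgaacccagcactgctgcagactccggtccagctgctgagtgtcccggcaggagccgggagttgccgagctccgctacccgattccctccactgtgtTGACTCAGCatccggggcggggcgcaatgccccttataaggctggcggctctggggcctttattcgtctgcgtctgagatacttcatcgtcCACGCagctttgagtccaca

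The window of *Gstm7* holds the antioxidant response element letters from position −14, counting the first transcribed base as 1. In *Gstp1* they begin at position −61, and the letters of the xenobiotic response element are found on the other strand at −238 and 31. Neither *Sult1a1* nor *Ugt2b35* had a match to any of the 5 motifs in its window. A RefSeq promoter was found by symbol for 27 of the 31 members, all but *Gstt1*, *Gstt2*, *Sult4a1* and *Ugt2a1*. The letters searched for the antioxidant response element, TGACNNNGC, occurred in 7 of the 27 (*Gsta1*, *Gsta2*, *Gsta3*, *Gstm5*, *Gstm7*, *Gstp1* and *Gstz1*), or 25.9%, and in 12.1% of all 33469 promoters of 300 bases. Of these 7, *Gstm7* was higher, *Gstp1* was lower and the others were not called or not tested in Cx HS21. The xenobiotic response element (GCGTG) occurred in 10 members (37.0%) and in 29.7% of all promoters. For the HNF1 half-site (GTTAAT) it was 2 members (7.41%) against 7.45%. The nuclear receptor half-site (AGGTCA), whose bases can be shared with the antioxidant response element, was also in 2 members, against 16.2%. The TATA box (TATAAA) was in 4 members (14.8%), against 14.2%. A match of letters is a description of the sequence and not evidence that a factor binds there.

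Genes that supply or remove the substrates and products of these enzymes were described as 7 lists. Their counts in Cx HS21 stand beside 20.5% lower and 18.9% higher among all genes, and 3 of 13 lower in glutathione synthesis, for example, is near that share. In Cx HS21, 9 of 15 tested genes on the list of conjugate efflux transporters were lower and 2 higher, with a median log2 ratio of −0.42. The lower ones included *Abcc2* (−1.22 ± 0.08), the apical exporter of glucuronide and glutathione conjugates, and *Abcg2* (−1.04 ± 0.06), an exporter of sulfate conjugates. The list was broader than its name and also held the urate transporter *Slc22a12* (−0.97 ± 0.09). Each of these 3 had an adjusted *P* under 0.05. Of the genes of UDP-glucuronic acid supply and glucuronide cleavage, 5 of 11 were lower and 0 higher (none at an unadjusted *P* under 0.05), among them *Ugdh* (−0.54 ± 0.06), which makes UDP-glucuronic acid, *Ugp2* (−0.27 ± 0.05), which makes UDP-glucose, and *Akr1a1* (−0.50 ± 0.05), which reduces glucuronate. Of the genes of PAPS supply and desulfation, 5 of 15 were lower and 2 higher, including the sulfate transporters *Slc13a1* (−0.88 ± 0.08) and *Slc26a1* (−0.88 ± 0.09) and the sulfatase *Arsb* (−0.53 ± 0.07).

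Glutathione synthesis and turnover had 3 of 13 genes lower and 1 higher, with a median of 0.009. *Gsr* (−0.39 ± 0.05), which regenerates glutathione, and *Oplah* (−0.43 ± 0.09), which opens 5-oxoproline, were lower and *Ggt6* (0.86 ± 0.22) was higher. Other conjugating enzymes, which methylate, acetylate or add glycine, and the epoxide hydrolase *Ephx1*, had 9 of 17 lower and 1 higher, among them *Ephx1* (−0.64 ± 0.08) and *Acsm1* (−0.47 ± 0.08). Of known targets of Nrf2, the transcription factor of the antioxidant response, 9 of 17 were lower and 3 higher, with *Txnrd1* (−0.51 ± 0.06) and *Abcc4* (−0.59 ± 0.09) among the lower. Of 16 rows of transcriptional regulators of xenobiotic metabolism, 8 were lower and none higher (none at an unadjusted *P* under 0.05 by edgeR), including *Rxra* (−0.59 ± 0.05), *Ppara* (−1.08 ± 0.10) and the partner of the aryl hydrocarbon receptor, *Arnt* (−0.39 ± 0.05).

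The same lists held fewer calls at Cx HS14, where 1.18% of all genes tested were lower. Called lower were 3 of 14 tested genes on the efflux transporter list, 1 of 17 Nrf2 targets and 1 of 17 other conjugating enzymes. *Ephx1* stands on both of the last 2 lists, so their calls may be of the same gene. In the OM no gene of the 7 lists was called at HS14 or HS21 by edgeR. An unadjusted *P* under 0.05 was found once each in glutathione synthesis, PAPS supply and Nrf2 targets at OM HS21, always with a positive ratio. At OM HS14 the same was found for 1 gene of glutathione synthesis and 1 of PAPS supply, with a positive ratio, and for 1 of the other conjugating enzymes, with a negative one. At OM HS21 the median log2 ratios of the lists lay between −0.24 and −0.003.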

How the data were processed

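The 30 mRNAseq libraries were analysed, 5 for each of Cx and OM on LS, HS14 and HS21. Per the submitters' processing notes, reads were aligned with HISAT2 2.0.5 (Rnor_6.0) and counted with featureCounts 1.5.0-p3, and StringTie 1.3.3b was also listed. The kit was non-directional. The table deposited by the authors holds raw read counts per gene, FPKM per library, gene length and position, DESeq2 normalised counts (signal, the authors' group means), and the authors' log2 fold changes and p-values of their comparisons, which were not used.

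From the counts, genes were kept by filterByExpr and scaled by TMM within the libraries compared, and tested with edgeR 4.0.16 (R 4.3.3) by the quasi-likelihood F test, with Benjamini-Hochberg adjustment over all genes tested and a threshold of 0.05. SE is the log2 ratio divided by the root of F. Exact permutation tests were two-sided, over 252 regroupings. CPM and FPKM were computed from TMM-scaled counts and the deposited gene length. Labels do not say whether libraries are separate rats of a group, so *P* measures the spread between libraries.

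Alternatives were DESeq2 size factors, total counts, no filter, DESeq2 1.42.0, limma 3.58.1 on log2(FPKM + 1) and log2(FPKM + 0.1), each library left out, a replicate block, and the study's share of intronic reads as a covariate. A further 2 were chosen after seeing the data, leaving out OM LS replicates 2 and 5, and the proximal marker level as a covariate. Members and lists were chosen with earlier results of these data known. Values were given for every library for up to 6 higher and 6 lower members with the largest ratio per comparison with LS and between tissues, for the most abundant of each class, and for members with an interaction at HS21. Of the genes on each list, up to 3 with the smallest adjusted *P* in Cx HS21 were named, except for 1 that is not reported here. Of 170 listed symbols, 160 were in the table. No 2 libraries of a group were copies, since their counts differed by at least 2.99 times counting noise. The fit was tested on simulated data.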

Additional observations from a re-analysis of the deposited data

Results flagged for a closer look

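Of 108 sets of 5 libraries (18 members in 6 groups), 7 had a library far from the other 4 on the log2 CPM scale, where chance alone gives about 5.4. In OM HS14 replicate 10, the library with the fewest reads (5408126), *Mgst3* was at 16.86 CPM against 61.89 to 98.21 CPM in the others, *Sult1a1* was at 14.97 CPM against 29.89 to 35.66 CPM, and *Sult5a1* was at 0.0 CPM against 0.7116 to 1.601 CPM. In OM HS21 replicate 11, *Ugt2b35* was at 2.871 CPM against 13.15 to 14.91 CPM and *Sult4a1* was at 10.43 CPM against 18.18 to 21.5 CPM. That library had the lowest proximal tubule marker level of its group, 4.59 against 6.53 to 7.64 on the log2 CPM scale. In OM LS replicate 5, *Sult4a1* was at 2.103 CPM against 13.99 to 26.44 CPM, and in Cx LS replicate 3 *Sult1c3* was at 4.949 CPM against 2.25 to 2.823 CPM.

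*Gstm1* was the 1 member whose answer to 21 days of 4.0% NaCl differed between the tissues by the interaction test, with a log2 difference of 1.563 ± 0.325 (adjusted *P* = 0.0306, edgeR). This call was lost in 7 of the 20 fits that left out a library, with total-count scaling and with the intron share as a covariate.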

How the results depend on the processing

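None of the 37 single member calls reversed under any alternative, and 12 kept their call under every planned setting other than leaving out a library, 27 under every library left out, and 10 under both. The intron share, a covariate among these settings, did not overlap between Cx HS21 and Cx LS or between OM LS and Cx LS. Calls lost under it in those comparisons cannot be read as unstable for that reason alone. Leaving out single libraries, the lower members ranged from 0 to 4 at Cx HS14 and from 9 to 11 at Cx HS21, with 1 and 3 higher throughout. They ranged from 1 to 3 lower and 0 to 2 higher for Cx HS21 against HS14, from 7 to 13 lower and 6 to 8 higher between tissues (13 without OM LS replicate 2), and from 0 to 2 higher for the tissue difference at HS21, and no member was called in the OM at either time. Without OM LS replicate 2, calls over all genes between tissues rose too, from 3051 higher and 2794 lower to 3768 and 3790. For the tissue difference at HS21 they rose there from 68 and 33 to 729 and 546. Without Cx HS14 replicate 10, which gave the 2 higher for Cx HS21 against HS14, they rose from 935 and 1395 to 1476 and 2048. DESeq2 gave 9 lower members at Cx HS14, 1 higher at OM HS21 and 1 lower (*Sult1c3*) for the tissue difference at HS21. Over all genes, DESeq2 called 500 higher and 414 lower, 555 and 166, and 337 and 201 in these comparisons, in that order. With the intron share as a covariate there were 3 lower at Cx HS21, 0 lower for Cx HS21 against HS14, 4 higher and 0 lower between tissues, and 0 higher and 1 lower (*Sult1c3*) for the tissue difference at HS21. Calls over all genes with this covariate were 699 higher and 893 lower at Cx HS21, and 2 and 16 for Cx HS21 against HS14. They were 482 and 423 between tissues, and 57 and 54 for the tissue difference at HS21. For Cx HS21 against HS14, total-count scaling gave 2 higher and limma on log2(FPKM + 1) gave 1 higher, and for the tissue difference at HS21 total-count scaling gave 0 higher. That limma setting called 835 higher and 1254 lower over all genes. The proximal marker level as a covariate gave 1 higher and 3 lower at OM HS21, and leaving out OM LS replicates 2 and 5 gave 15 lower between tissues. The cause of these changes was not tested. Total-count scaling moved the median of all genes to 0.129 for Cx HS21 against HS14 and the calls over all genes from 935 higher and 1395 lower to 2084 higher and 644 lower. Summed FPKM from the deposited values stayed within 1 SD of those given, at 2618 in Cx LS and 1866 in Cx HS21. The paper states that kidneys were dissected into Cx and OM, but the labels do not say that equal replicate numbers mark the same rat. Deviations of same-numbered libraries correlated from −0.08 to 0.51, with 12 of 15 above 0.1. For 13 of the 15 numbers, the best correlation was with the library of the same number. Cx and OM libraries may therefore be paired by rat, whereas the main tests between tissues treated them as unpaired. The replicate block gave 7 higher and 9 lower between tissues and 1 higher at HS21, and changed no count of calls. Groups of 5 and the unequal OM libraries limit what small OM differences could be detected.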
